A study of Mus musculus with 12 samples.

Results

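Proteasome subunit genes were taken as the genes whose symbol in the deposited tables is *Psma*, *Psmb*, *Psmc* or *Psmd* with a number, and whose mean expected count over the 12 libraries reached 100. An expected count is the estimated number of read pairs from a gene. Of 54146 genes in each library, 39 had such a symbol and 36 reached the minimum, 16 of the core particle (*Psma* and *Psmb*) and 20 of the regulatory particle (*Psmc* and *Psmd*). The regulatory genes, grouped by symbol, include *Psmd5*, *Psmd9* and *Psmd10*, which encode assembly chaperones but are counted among the subunit genes here. *Psma8* (mean count 421) and *Psmd10* (696) lay nearest above the minimum. *Psmb9* (54.8), *Psmb8* (25.5) and *Psmb11* (0.333), which encode inducible immunoproteasome subunits and the thymic subunit, lay below it and were left out.

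The proteasome degrades proteins tagged with ubiquitin. Its core particle is a barrel of stacked rings, in which outer alpha rings (*Psma*) form the gate and inner beta rings (*Psmb*) hold the proteolytic sites. The regulatory particle caps the barrel, with an ATPase ring (*Psmc*) that unfolds the substrate and non-ATPase subunits (*Psmd*) that bind and remove ubiquitin. Embryonic stem cells are known for high proteasome activity.

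RNA-seq was performed in mouse embryonic stem cells (mESCs) of C57BL/6 strain with a floxed exon of *Prdm10*, which encodes a zinc finger transcription factor. All carried Rosa26-CreERT2, a recombinase expressed from a ubiquitous locus and activated by 4-hydroxytamoxifen (OHT), and all were grown on gelatin with 15% serum and 1000 U/ml LIF. Cells given 50 nM OHT for 24 h are labelled Prdm10del/del; Rosa26-CreERT2, and cells given ethanol (EtOH) for the same time are labelled Prdm10F/F; Rosa26-CreERT2. With harvests on Day 2 and Day 4, there were 4 groups, each of 3 libraries. Nothing in the labels says that replicates were separate cultures, so that p-values measure the spread between these libraries, which may be technical.

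Libraries held 35017667 to 41409992 expected counts. The 8 mESC markers examined summed to between 2365 and 2850 TPM (a level per transcript length, scaled to the same total in each library) in every library. Of 6 fibroblast feeder markers, 5 were below 1 TPM in every library, as were 9 of 10 germ layer markers. *Prdm10* (ENSMUSG00000042496.18, chromosome 9, 31280538 to 31381723, plus strand, GRCm38) had normalised counts of 758.5, 817 and 814 in the EtOH-labelled and 2071, 2211 and 2200 in the OHT-labelled libraries at Day 2. At Day 4 they were 827, 884 and 919.6 against 1998, 2106 and 1976. The whole-gene count was therefore higher under the label of deletion, with a log2 fold change of 1.44 at Day 2 and 1.21 at Day 4. Such a count does not show whether the floxed exon was removed, and single exons were not analysed here, so groups are called by their labels throughout. The study reports that recombination was verified in genomic DNA, in transcripts of the floxed exon and in PRDM10 protein. Those assays were not analysed here.

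The 36 genes lie on 16 chromosomes, with 6 of them on chromosome 11 and 5 on chromosome 2, and all are annotated as protein coding. Of the 36, *Psma7* and *Psmc3* are on the list of 633 genes that the study associated with PRDM10 ChIP-seq peaks. *Psma7* encodes an alpha ring subunit and *Psmc3* an ATPase of the regulatory ring. The study's gel-shift probe for PRDM10, which contains its motif, and the mutant probe are shown because the study tested binding with them. In the study the mutant was bound less efficiently. The span from the first to the last changed base (probe positions 10 to 20) is in capitals, and 8 of its 11 bases were changed. Matches below are to this probe, and the study's motif itself was not searched for.
PRDM10 probe WT: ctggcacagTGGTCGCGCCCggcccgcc
PRDM10 probe MUT: ctggcacagCAACCGCATTTggcccgcc

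The promoter of *Psma7*, from 250 bases before to 50 bases after its start in RefSeq (chr2:180042415-180042714, minus strand, GRCm38.p6), is shown because this gene had the most negative change on both days. Its nearest match to the 11-base span of the probe is in capitals.
Psma7 promoter: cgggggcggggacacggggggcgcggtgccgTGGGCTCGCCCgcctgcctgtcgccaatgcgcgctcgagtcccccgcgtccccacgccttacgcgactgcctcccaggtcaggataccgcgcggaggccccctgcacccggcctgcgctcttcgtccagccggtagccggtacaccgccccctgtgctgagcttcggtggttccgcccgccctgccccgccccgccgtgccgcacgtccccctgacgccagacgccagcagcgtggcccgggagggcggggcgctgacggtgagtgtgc

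The match lay 219 to 209 bases before the start and differed from the probe by T4G and G6T, with positions counted from 1 at the 5′ end of the span and the probe's base given first. A match with at most 2 differences on either strand was held by 11.8% of the 27025 genes with a promoter in the table, and by 30.5% of the 423 genes of the PRDM10 list that had one. Among the 29 subunit genes with a promoter in the table, *Psma7* and *Psmc6* held such a match. Promoters of *Psma8*, *Psmb1*, *Psmb2*, *Psmb7*, *Psmc3*, *Psmd3* and *Psmd7* were not analysed here.

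At Day 2, the question was whether subunit genes had changed early after OHT. The OHT-labelled libraries were lower for 6 of 36 subunit genes and higher for 0, where a call needed an adjusted p under 0.05 from DESeq2 and more than 100 normalised counts on average. Over all 11642 genes tested, 10.8% were lower and 9.23% were higher. The changes were small. *Psma7* fell by 20.4%, a log2 fold change of -0.33. *Psmd3*, a scaffold subunit of the lid (-0.16), and the ATPase gene *Psmc6* (-0.16) fell less, as did the alpha ring genes *Psma4* (-0.15), *Psma2* (-0.13) and *Psma1* (-0.11). The log2 fold change was below 0 for 34 of the 36 genes, with a median of -0.09, against 57.7% of all genes and a median of -0.03 over them. At an unadjusted p below 0.05, 16 of the 36 (44.4%) and 3799 of all genes (32.6%) passed. Of the 16, *Psmd11* was the only one above 0. In these bulk samples, fewer cells of a kind and less RNA per cell cannot be told apart.

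The Day 2 count rested on single libraries. It was 2 without Day2_EtOH replicate 1, 4 without Day2_EtOH replicate 2, 11 without Day2_OHT replicate 3, and 12 when all 12 libraries were fitted together. Of the 6 genes, *Psma7* and *Psmd3* were called lower under all 16 alternatives. The calls of *Psma1*, *Psma2*, *Psma4* and *Psmc6* were lost without Day2_EtOH replicate 1, as were *Psma1* and *Psma2* without Day2_EtOH replicate 2, and *Psma1* without Day2_OHT replicate 1 or Day2_OHT replicate 2. *Psmd11*, a scaffold subunit of the lid with a log2 fold change of 0.13 ± 0.05 (SE, adjusted p 0.0532 by DESeq2), was called higher in 7 of these 16, edgeR among them, and without Day2_EtOH replicate 3 or Day2_OHT replicate 1. Of all genes called at Day 2, 46.1% were higher, against 68.5% with total counts as scaling and 25.1% with the trend on gene length removed. With that trend removed the median of the subunit genes was -0.08 against -0.06 over all genes, and 7 of 36 were lower against 2011 of 11650 genes. The median of the subunit genes remained negative under each alternative, from -0.10 to -0.05.

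At Day 4, the same question was asked after a longer time. Of the 36, 20 fell and 0 rose (55.6% lower), whereas 21.7% of 11552 genes were lower and 23.6% were higher. *Psma7* fell by 27.1%, a log2 fold change of -0.46, and *Psma8* (-0.33), *Psmd7* (-0.32), *Psma5* (-0.31) and *Psmb10* (-0.27) came next. The median log2 fold change was -0.10, against 0.01 over all genes, and ranged over the alternatives from -0.12 to -0.06. All 6 genes called at Day 2 were also called at Day 4, and 14 more were called at Day 4 alone. This overlap was not counted over all genes, of which 10.8% were lower at Day 2 and 21.7% at Day 4. Whether it is particular to the subunit genes was therefore not tested.

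The count of genes that fell was 14 to 21 over the 16 alternatives, and 14 genes were called lower in each of them. These were *Psma1*, *Psma2*, *Psma4*, *Psma5*, *Psma6*, *Psma7*, *Psma8*, *Psmb10*, *Psmc1*, *Psmc2*, *Psmd3*, *Psmd6*, *Psmd7* and *Psmd12*. The calls of *Psmb2* and *Psmc6* held in 6 and that of *Psmc5* in 8 of the 16. All 3 were lost without Day4_EtOH replicate 1 or any Day4_OHT library, and *Psmb2* also without Day4_EtOH replicate 2. Without Day4_EtOH replicate 1, in which these genes took 0.765% of all counts against 0.738% and 0.736% in the other EtOH-labelled libraries, 17 genes were lower and *Psma3* and *Psmb7* were called higher. The share of all counts in mitochondrially encoded mRNAs also moved with the label, from 1.33% ± 0.0333 (SD, n = 3) to 0.792% ± 0.0302 (SD, n = 3) at Day 4. Its part in the result was not tested.

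**Figure D1:**
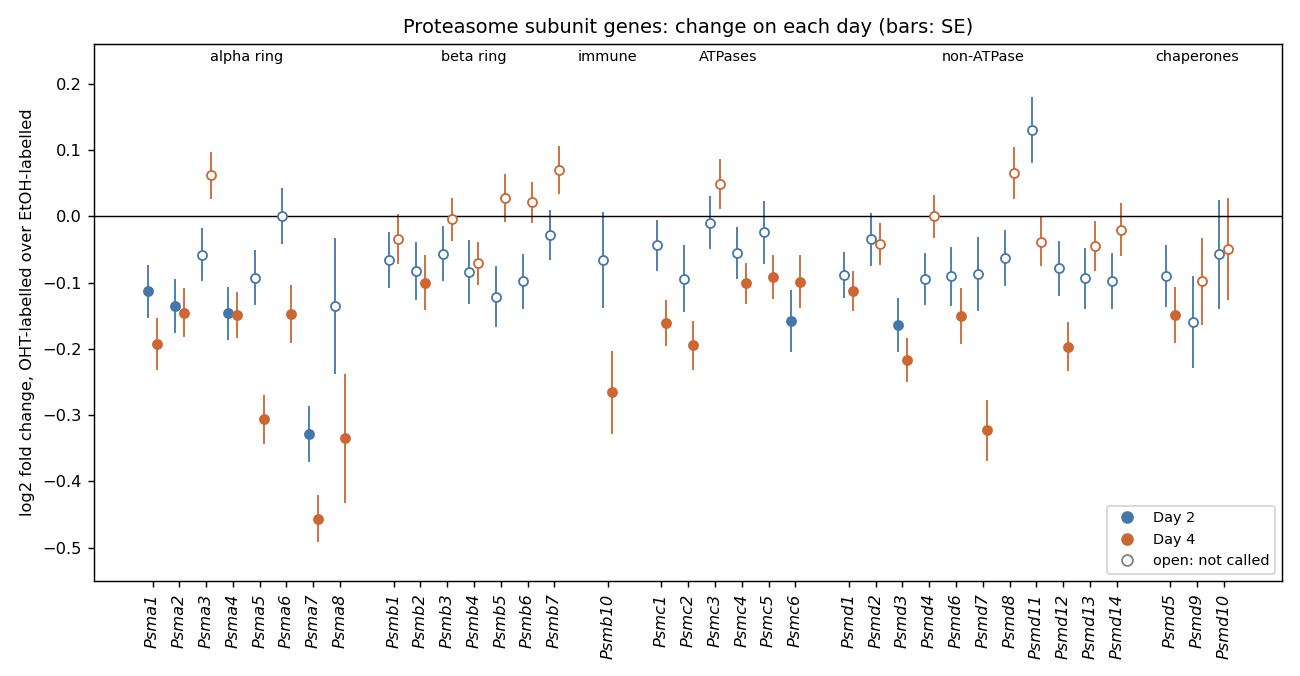
Log2 fold change of each subunit gene, OHT-labelled over EtOH-labelled, at Day 2 (blue) and Day 4 (orange), grouped by role. Bars are SEs and open circles are genes not called; *Psma7* is lowest on both days and, of the constitutive beta ring, only *Psmb2* is called.

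Within the core particle, the calls lay mostly in the alpha ring. In the alpha ring, which gates the barrel, 7 of 8 genes fell at Day 4 and the median log2 fold change was -0.17. Beside *Psma7*, *Psma8* and *Psma5* these were *Psma1* (-0.19), *Psma4* (-0.15), *Psma6* (-0.15) and *Psma2* (-0.15). *Psma3* was the exception, at 0.06 (SE 0.04). In the constitutive beta ring 1 of 7 fell, *Psmb2* (-0.10, SE 0.04), and the median was -0.0045. The others, which hold up the ring or carry its catalytic sites, lay at -0.07 (*Psmb4*), -0.03 (*Psmb1*), -0.0045 (*Psmb3*), 0.02 (*Psmb6*), 0.03 (*Psmb5*) and 0.07 (*Psmb7*). *Psmb10*, the only inducible subunit gene above the minimum, also fell (-0.27, SE 0.06). It was kept apart from the constitutive beta ring, whereas *Psma8*, a paralog of *Psma7* known from the testis, was counted in the alpha ring. *Psma8* had 5.66 TPM in Day 2 EtOH-labelled libraries. The 2 rings were thus not grouped alike. At Day 2 the alpha ring held all 4 core genes called, with a median of -0.12 against -0.08 in the beta ring. Alpha against beta was not tested.

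*Psma7* (ENSMUSG00000027566.15, chromosome 2, 180036374 to 180042433, minus strand) had normalised counts of 7645, 7365 and 7259 in the EtOH-labelled libraries at Day 2, and 6077, 5839.8 and 5818 in the OHT-labelled ones. At Day 4 its counts were 7093, 7146 and 7066 against 5309, 5224 and 4999.7. All OHT-labelled libraries lay below all EtOH-labelled ones on both days. Counts were scaled within each day, so Day 2 and Day 4 counts are not on the same scale. The log2 fold change was -0.33 ± 0.04 (SE, adjusted p 1.42e-12 by DESeq2) at Day 2 and -0.46 ± 0.04 (SE, adjusted p 3.9e-35 by DESeq2) at Day 4. It ranged from -0.35 to -0.29 and from -0.47 to -0.43 over the alternatives.

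*Psmc3* (ENSMUSG00000002102.15, chromosome 2, 91054009 to 91066369, plus strand), the other gene on the PRDM10 list, was not called on either day. Its counts were 8302, 8284 and 8425 in EtOH-labelled and 8167, 8155 and 8527 in OHT-labelled libraries at Day 2. At Day 4 they were 9434, 8800.5 and 8985 against 9701, 9481 and 8973. The groups overlapped on both days, and neither log2 fold change passed the test, at -0.01 ± 0.04 (SE, adjusted p 0.917 by DESeq2) and 0.05 ± 0.04 (SE, adjusted p 0.354 by DESeq2).

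The genes of the catalytic subunits were examined as a group, since *Psmb6*, *Psmb7* and *Psmb5* encode the caspase-like, trypsin-like and chymotrypsin-like activities. None was called on either day. *Psmb5* (ENSMUSG00000022193.7) had counts of 5486, 5259.8 and 5067 in EtOH-labelled and 4864, 4725 and 4957 in OHT-labelled libraries at Day 2. The groups did not overlap there, with a log2 fold change of -0.12 ± 0.05 (SE, adjusted p 0.0534 by DESeq2). At Day 4 its counts were 5673, 5433 and 5551 against 5759.8, 5671 and 5551, which overlapped.

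*Psmb6* (ENSMUSG00000018286.6) followed the same course. Its counts were 13324, 14004 and 13003 against 12621, 12266 and 12799 at Day 2, and 14757, 14124 and 14117 against 14544, 14856 and 14229 at Day 4. The groups did not overlap at Day 2 and overlapped at Day 4, with log2 fold changes of -0.10 (SE 0.04) and 0.02 (SE 0.03). *Psmb7* (ENSMUSG00000026750.6), which had the most positive Day 4 value of the core particle, had counts of 8890.1, 8762 and 8862 against 8621, 8600.2 and 8779 at Day 2. At Day 4 they were 9503, 9094 and 8788 against 9635, 9780.2 and 9337, and the groups overlapped on both days. Its Day 4 log2 fold change was 0.07 ± 0.04 (SE, adjusted p 0.123 by DESeq2).

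**Figure D2:**
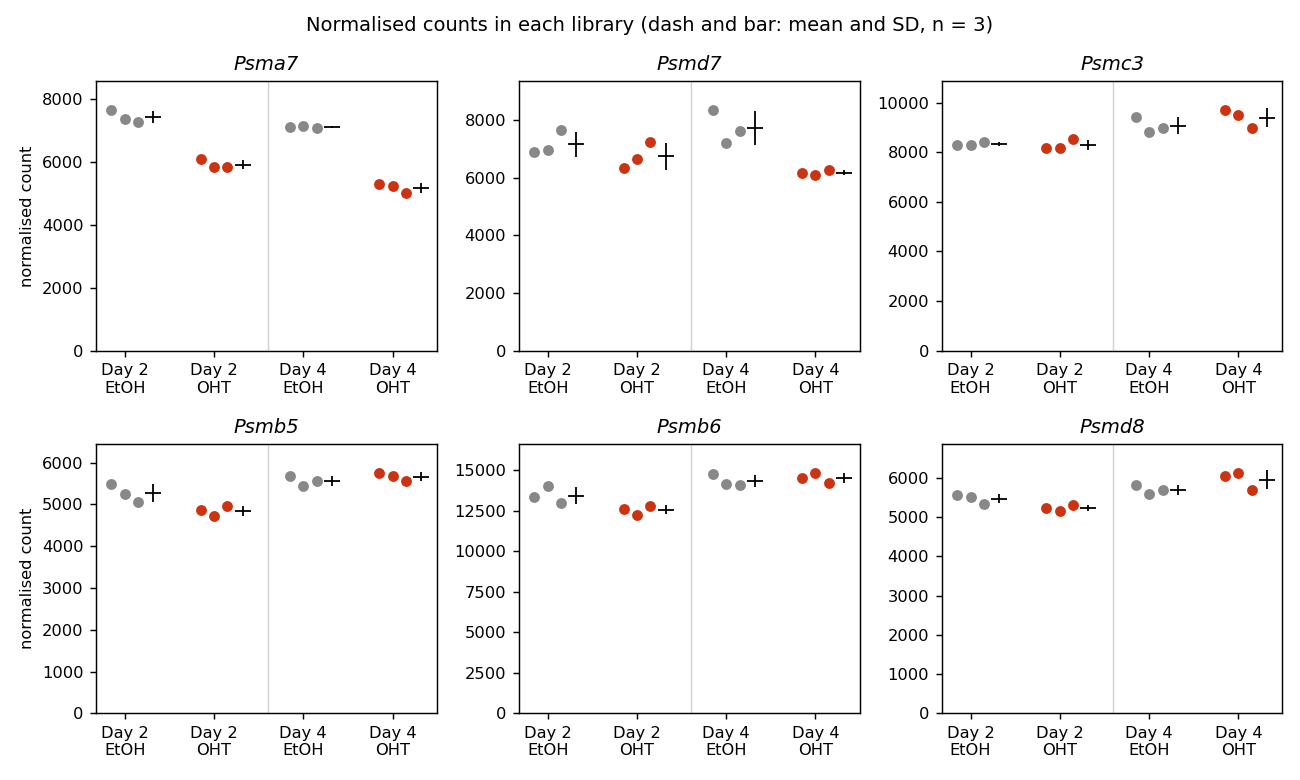
Normalised counts of 6 subunit genes in each of the 12 libraries (grey, EtOH-labelled; red, OHT-labelled), from 0, with the mean and SD of 3 libraries beside each group. Counts were scaled within each day. The groups of *Psma7* are apart on both days and those of *Psmd7* at Day 4, whereas *Psmc3*, *Psmb5* and *Psmb6* overlap at Day 4.

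In the regulatory particle, 11 of 20 genes fell at Day 4. Of the ATPase ring, which unfolds substrates, 5 of 6 fell, with *Psmc3* as the exception. Their values were -0.19 (*Psmc2*), -0.16 (*Psmc1*), -0.10 (*Psmc4*), -0.10 (*Psmc6*) and -0.09 (*Psmc5*). Of the non-ATPase subunits, 5 of 11 fell. *Psmd7*, the partner of the deubiquitinase *Psmd14* in the lid, was lowest (-0.32), followed by the lid genes *Psmd3* (-0.22), *Psmd12* (-0.20) and *Psmd6* (-0.15) and by *Psmd1*, a scaffold of the base (-0.11). The other 6 were not called. They were the lid genes *Psmd13* (-0.04), *Psmd11* (-0.04), *Psmd14* (-0.02) and *Psmd8* (0.07), the base scaffold *Psmd2* (-0.04) and the ubiquitin receptor *Psmd4* (0.00). Of the 3 assembly chaperones named *Psmd*, which help build the base and are not part of the finished particle, *Psmd5* fell (-0.15, SE 0.04), and *Psmd9* and *Psmd10* had values of -0.10 (SE 0.07) and -0.05 (SE 0.08).

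*Psmd7* (ENSMUSG00000039067.5, chromosome 8, 107580381 to 107588464, minus strand) had the most negative Day 4 value of the regulatory particle. Its counts were 8346, 7202 and 7615 in EtOH-labelled and 6169, 6076 and 6269.8 in OHT-labelled libraries. The OHT-labelled libraries were lower without overlap, with a log2 fold change of -0.32 ± 0.05 (SE, adjusted p 2.99e-11 by DESeq2). At Day 2 its counts were 6878, 6945 and 7654 against 6337, 6631 and 7242, which overlapped. *Psmd8*, a lid subunit, had the most positive Day 4 value of the regulatory particle, 0.07 (SE 0.04). Its counts at Day 4 were 5818, 5577 and 5685 against 6055, 6133 and 5683, and at Day 2 they were 5550.1, 5510 and 5340.2 against 5231, 5159.7 and 5314. Its groups overlapped at Day 4 and not at Day 2.

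Core and regulatory genes were compared by their shares called and their medians. At Day 4, 9 of 16 core genes (56.3%) and 11 of 20 regulatory genes (55.0%) fell, with median log2 fold changes of -0.12 and -0.10. At Day 2, 4 of 16 and 2 of 20 fell, against 10.8% of all genes, and both medians were -0.09. The core genes were shorter, with a median effective length of 899 bases against 1401 for the regulatory genes. With the trend on gene length removed, the Day 2 call of *Psma1* was lost, and *Psmd1* and *Psmd5* were called lower. The part of length in this comparison was not tested. The mean log2 normalised count of the core genes at Day 2 was 12.52 ± 0.04 in EtOH-labelled and 12.42 ± 0.02 in OHT-labelled libraries (mean and SD of 3 libraries here and below), and at Day 4 it was 12.55 ± 0.04 and 12.43 ± 0.01. For the regulatory genes the means were 12.66 ± 0.01 against 12.59 ± 0.03 at Day 2, and 12.73 ± 0.05 against 12.64 ± 0.01 at Day 4. On both days and for both particles, the OHT-labelled libraries lay below all EtOH-labelled ones. Core minus regulatory changed by -0.03 with the label on either day, which was no larger than the SD of that difference at Day 2 (0.03 and 0.04). At Day 4 that SD was 0.02 in EtOH-labelled libraries and 0.0044 in OHT-labelled ones. There all OHT-labelled libraries (-0.22 to -0.21) lay below all EtOH-labelled ones (-0.19 to -0.17), whereas at Day 2 the groups overlapped, and the difference was not tested.

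**Figure D3:**
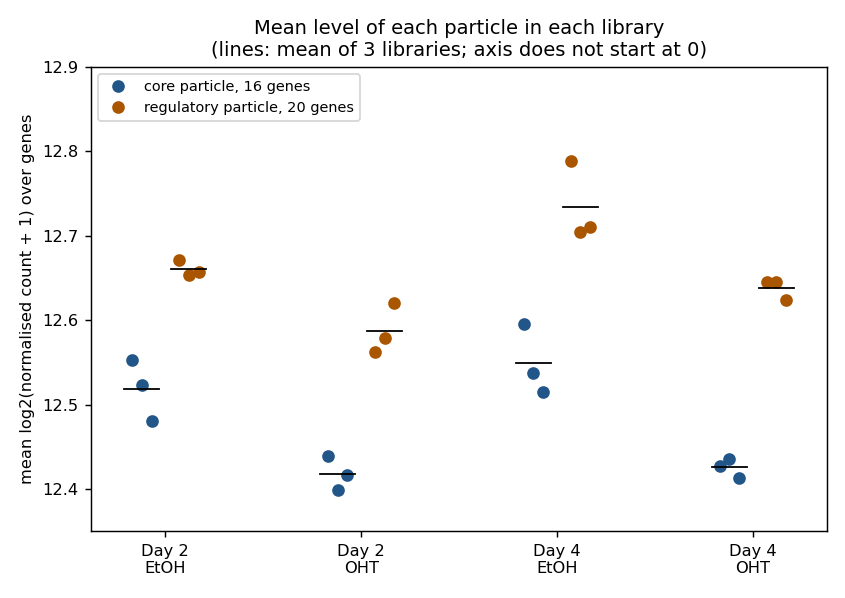
Mean log2(normalised count + 1) of the 16 core (blue) and 20 regulatory (orange) genes in each library, with a line at the mean of 3 libraries; the axis does not start at 0. In both particles the 3 OHT-labelled libraries of a day lie below the 3 EtOH-labelled ones.

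The difference of the OHT effect between the days was then tested as an interaction over all 12 libraries. It was called for 8 of 36 genes, 3 higher at Day 4 and 5 lower, whereas 18.9% of 11612 genes were called higher and 13.6% lower. *Psma5* (-0.21), *Psmd7* (-0.23), *Psmd11* (-0.17), *Psma6* (-0.14) and *Psma7* (-0.12) had a more negative effect at Day 4. *Psmb5* (0.15), *Psmd8* (0.13) and *Psmb6* (0.12) had a more positive one. Only *Psma5* was called in all 18 alternatives. The count was 1 without Day2_EtOH replicate 2 or Day4_OHT replicate 2, 2 without Day2_EtOH replicate 1, 4 without Day2_OHT replicate 1, Day4_EtOH replicate 2, Day4_EtOH replicate 3 or Day4_OHT replicate 1, and 5 without Day2_OHT replicate 2. With total counts as scaling, 10 were lower and 0 higher. Of all genes called, 58.1% were higher, against 44.3% with total counts and 72.4% with the length trend removed.

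Changes between the days were compared within each label. These comparisons share libraries with those above, so their values are given side by side and are not independent. In EtOH-labelled libraries 9 of 36 genes rose from Day 2 to Day 4 and 1 fell, against 20.6% and 20.5% of 11570 genes. The ATPase genes *Psmc1* (0.21), *Psmc5* (0.18), *Psmc4* (0.15) and *Psmc3* (0.10) were among those that rose, and *Psmb4*, a beta ring gene, fell (-0.11, SE 0.04). The 9 became 12 with edgeR, with total counts as scaling or with the length trend removed. They became 5 without Day2_EtOH replicate 1 or Day4_EtOH replicate 1, and 3 without Day2_EtOH replicate 2. The call of *Psmb4* was lost without either of these Day 2 libraries or without Day4_EtOH replicate 2 or Day4_EtOH replicate 3. In OHT-labelled libraries 12 rose (33.3%) and 4 fell (11.1%), against 30.9% and 23.1% of 11633 genes. The share that rose was near that of all genes, and the median was 0.03 against 0.04 over all genes. All of *Psmb5* (0.21), *Psmb6* (0.20) and *Psmb7* (0.13) rose, as did 5 of 6 ATPase genes. *Psma7* (-0.21), *Psmd11* (-0.18), *Psma5* (-0.16) and *Psmd7* (-0.14) fell. Of all genes called in OHT-labelled libraries, 57.2% were higher, against 69.2% with the length trend removed and 50.6% with total counts as scaling. With total counts, 9 of the 36 rose and 6 fell, and *Psmc1* and *Psmc6* were no longer among those that rose.

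Levels per length were compared between genes as TPM. In the EtOH-labelled libraries of Day 2, *Psmb6* had the highest level (464 ± 15.2 TPM, SD, n = 3), followed by *Psmb3* (341 TPM) and *Psma3* (230.2 TPM), and their ranges over libraries did not overlap. In the order of levels, 18 of 35 neighbouring pairs overlapped in range. Without *Psma8*, the highest level was 39.8 times the lowest. The median was 156 TPM for core and 113 TPM for regulatory genes. The ATPase genes ran from 71.3 TPM (*Psmc2*) to 154 TPM (*Psmc5*), and the non-ATPase genes from 65.4 TPM (*Psmd11*) to 161 TPM (*Psmd2*). Lowest were the assembly chaperones *Psmd5* (33.1 TPM), *Psmd9* (14.9 TPM) and *Psmd10* (11.7 TPM), and *Psma8* (5.66 TPM), a paralog of *Psma7* known from the testis. Rank in this order moved by more than 3 places for 0 genes in Day 2 OHT, 2 in Day 4 EtOH and 6 in Day 4 OHT libraries. *Psma7* was 5th in EtOH-labelled Day 2 libraries at 207 TPM, and had 153 TPM in OHT-labelled Day 4 libraries.

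**Figure D4:**
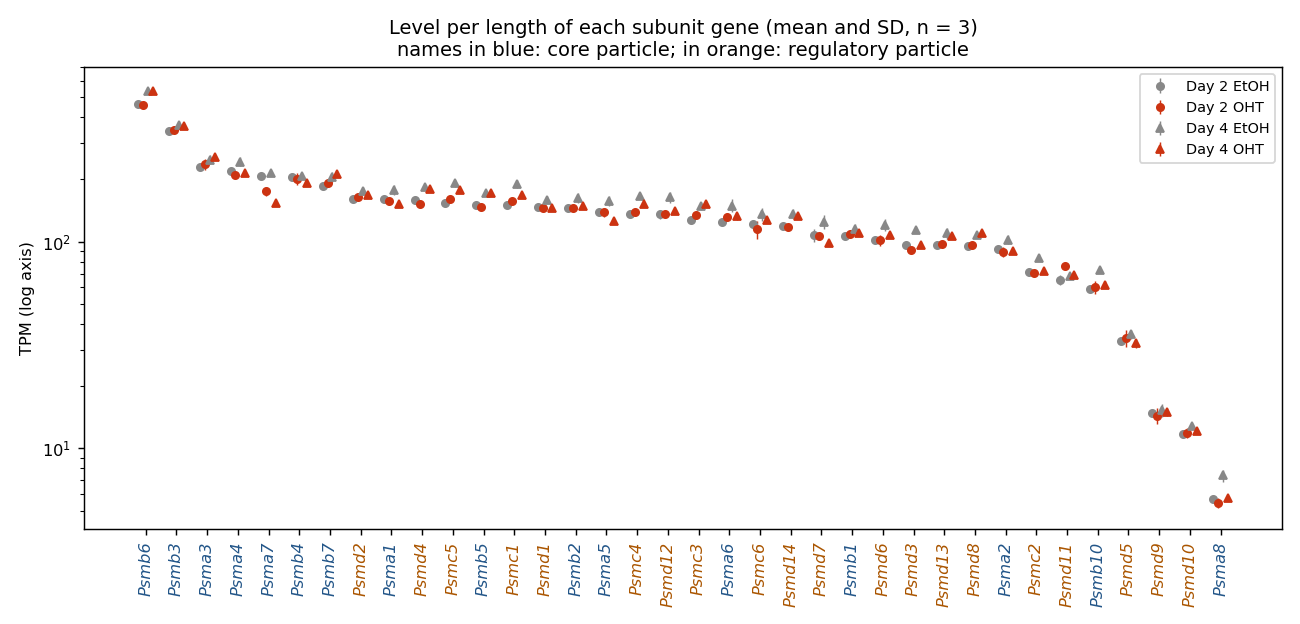
TPM of each subunit gene on a log axis, mean and SD of 3 libraries, ordered by the level in Day 2 EtOH libraries. Levels run from 464 TPM for *Psmb6* to 5.66 TPM for *Psma8*, and in Day 4 OHT libraries *Psma7* is at 153 TPM, below both its neighbours in the order.

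Together the 36 genes took 0.712% ± 0.00537 (SD, n = 3) of all counts in EtOH-labelled and 0.690% ± 0.00374 (SD, n = 3) in OHT-labelled libraries at Day 2. At Day 4 these shares were 0.746% ± 0.0163 (SD, n = 3) and 0.697% ± 0.00438 (SD, n = 3). Each OHT-labelled library was below each EtOH-labelled library of its day. On the TPM scale, which divides by effective length, the 36 genes summed at Day 2 to 4937 ± 16.8 TPM (SD, n = 3) against 4923 ± 131 TPM (SD, n = 3), with the OHT-labelled libraries on both sides of the EtOH-labelled ones. At Day 4 they summed to 5585 ± 234 TPM (SD, n = 3) against 5183 ± 24.2 TPM (SD, n = 3), without overlap. RSEM's posterior SD, which measures how uncertainly reads were shared between genes, was at most 0.503% of the count of any subunit gene (*Psma3*).

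Sequence features that the choice of genes did not use were looked for in the 29 promoters. The letters TGACNNNGC, the core of the antioxidant response element bound by NRF1 (*Nfe2l1*) and NRF2 (*Nfe2l2*), were held on either strand by 5 of 29 (17.2%), against 14.0% of all 27025 genes. Those of *Psmb5* (chr14:54617994-54618082, minus strand) and *Psmb6* (chr11:70525308-70525396, plus strand), beginning 47 and 9 bases before the start, are shown because both encode catalytic subunits, with the element in capitals.
Psmb5: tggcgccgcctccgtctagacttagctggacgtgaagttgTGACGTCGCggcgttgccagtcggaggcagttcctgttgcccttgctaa
Psmb6: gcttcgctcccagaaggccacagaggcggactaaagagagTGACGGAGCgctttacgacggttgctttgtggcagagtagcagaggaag

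The letters CCGGAAG, the core of the site bound by ETS factors, were held by 10 of 29 (34.5%), against 9.93% of all genes. They were in 9 of 17 regulatory and 1 of 12 core promoters. The letters CCAAT were in 11 of 29 (37.9%), against 41.1%. The backgrounds for these letters and for the antioxidant element include genes below the minimum count. Shares over expressed genes alone were not counted. The ETS letters of 5 regulatory genes that held them once are shown because they began within 30 bases before the start. They are in capitals on the strand of the gene (CTTCCGG is the reverse complement). The 5 were picked by this distance, counted from the start in RefSeq. By the gene starts in GENCODE, the stretches of *Psmc1*, *Psmd12* and *Psmd13* lie after the start. Single matches of *Psmd6*, *Psmc6* and *Psmd4*, not shown, began 45, 100 and 125 bases before the start.
Psmc1, chr12:100110162-100110192: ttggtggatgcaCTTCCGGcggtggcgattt
Psmd2, chr16:20651614-20651644: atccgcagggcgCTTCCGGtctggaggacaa
Psmd11, chr11:80428592-80428622: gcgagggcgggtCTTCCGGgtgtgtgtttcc
Psmd12, chr11:107479499-107479529: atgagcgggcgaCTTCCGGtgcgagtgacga
Psmd13, chr7:140882376-140882406: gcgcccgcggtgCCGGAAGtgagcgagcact

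These matches began 28, 26, 11, 17 and 6 bases before the start. Genes with the ETS letters had a Day 4 median of -0.12 and 6 of 10 fell, whereas those without had -0.10 and 10 of 19 fell. For the antioxidant element the Day 4 medians were -0.10 with it, of which 2 of 5 fell, and -0.11 without, of which 14 of 24 fell. For CCAAT they were -0.15 with it, of which 6 of 11 fell, and -0.10 without, of which 10 of 18 fell. A match is a run of letters only, and binding was not measured.

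The other genes of the ubiquitin-proteasome pathway did not share one direction. Of 34 listed, all but *Paaf1* were found under their symbols, and the 33 were above the minimum. Of them, 3 rose (9.09%) and 7 fell (21.2%) at Day 2, against 9.23% and 10.8% of all genes. At Day 4, 9 rose (27.3%) and 12 fell (36.4%), against 23.6% and 21.7%. Their medians were -0.08 and -0.03, against -0.03 and 0.01 over all genes. Of the 2 other regulatory particle subunits, the ubiquitin receptor *Adrm1* fell on both days (-0.13, SE 0.05, and -0.21, SE 0.04). *Sem1* rose at Day 4 (0.13, SE 0.04). Of the 5 chaperones that assemble the core particle, *Psmg3* (-0.31), *Psmg2* (-0.21) and *Pomp* (-0.15) fell at Day 4 and 0 rose, with a median of -0.15. At Day 2 *Psmg1* alone of them fell (-0.18, SE 0.05), and at Day 4 *Psmg1* (-0.11) and *Psmg4* (-0.03) were not called.

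Genes of alternative caps and the inhibitor moved otherwise. At Day 4 *Psme1*, a subunit of the activator that caps the core without ATP, rose (0.28, SE 0.05), as did *Psme4* (0.08) and the inhibitor *Psmf1* (0.23), whereas *Psme3*, the nuclear activator, fell (-0.22, SE 0.04) and *Psme2* had a value of -0.02. NRF1 is the factor that raises subunit genes when the proteasome fails. *Nfe2l1* itself fell at Day 4 (-0.09, SE 0.04, DESeq2 adjusted p = 0.0468), as did *Ddi2*, the protease that activates it (-0.12). *Nfe2l2* rose on both days (0.14 and 0.37) and *Ngly1*, which removes sugars from NRF1, rose at Day 4 (0.27, SE 0.10). *Vcp*, the segregase that extracts it from the membrane, had a value of 0.00 (SE 0.03).

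Of the 5 enzymes bound to the proteasome, the deubiquitinases *Usp14* (-0.11) and *Uchl5* (-0.13) and the thioredoxin *Txnl1* (-0.16) fell at Day 4. *Uchl5* (-0.16) and *Txnl1* (-0.12) had also fallen at Day 2. *Ecpas*, an adaptor of the proteasome, rose at Day 2 (0.25, SE 0.06) and had a Day 4 value of 0.0093, and the ubiquitin ligase *Ube3c* was at -0.04. Of the 7 shuttle and import factors, *Zfand5* (0.24) and *Akirin2* (0.29), which brings proteasomes into the nucleus, rose at Day 4 and *Ubqln1* fell (-0.17). *Rad23b* (-0.03), *Ubqln4* (-0.02) and the importin *Ipo9* (0.01) were not called at Day 4, although *Rad23b* had fallen at Day 2 (-0.16, SE 0.04). *Ubqln2* rose at Day 2 (0.42, SE 0.11) and had a Day 4 value of -0.18 (SE 0.12). Among ubiquitin genes, *Rps27a*, which encodes ubiquitin fused to a ribosomal protein, fell at Day 2 (-0.13, SE 0.04) and rose at Day 4 (0.20, SE 0.04). *Ubb*, which encodes a chain of ubiquitin, was not called at Day 4 (0.03). *Uba1*, the main ubiquitin-activating enzyme and also on the PRDM10 list, fell on both days (-0.18, SE 0.04, and -0.18, SE 0.03), and the other such enzyme, *Uba6*, had values of -0.13 and -0.07.

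Many of these calls rested on single libraries. Of the 10 pathway genes called at Day 2, *Uba1* alone was called in all 16 alternatives, and *Adrm1*, *Psmg1*, *Nfe2l2*, *Txnl1*, *Ubqln2* and *Rps27a* were lost without Day2_EtOH replicate 1. Of the 21 called at Day 4, 12 held in all 16. These were *Adrm1*, *Psmg2*, *Psmg3*, *Psme1*, *Psme3*, *Nfe2l2*, *Txnl1*, *Ubqln1*, *Zfand5*, *Akirin2*, *Rps27a* and *Uba1*. The other 9 were lost without single Day 4 libraries. Calls lost without an EtOH-labelled library were those of *Pomp*, *Usp14* and *Uchl5* (replicate 1), *Sem1* and *Nfe2l1* (replicate 2), and *Psme4*, *Psmf1*, *Nfe2l1*, *Ddi2* and *Ngly1* (replicate 3). Those lost without an OHT-labelled one were *Sem1*, *Psme4*, *Nfe2l1*, *Ngly1*, *Usp14* and *Uchl5* (replicate 1), *Psme4*, *Nfe2l1*, *Ddi2* and *Usp14* (replicate 2), and *Pomp*, *Nfe2l1* and *Ngly1* (replicate 3). The call of *Nfe2l1* held in 6 of the 16.

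**Figure D5:**
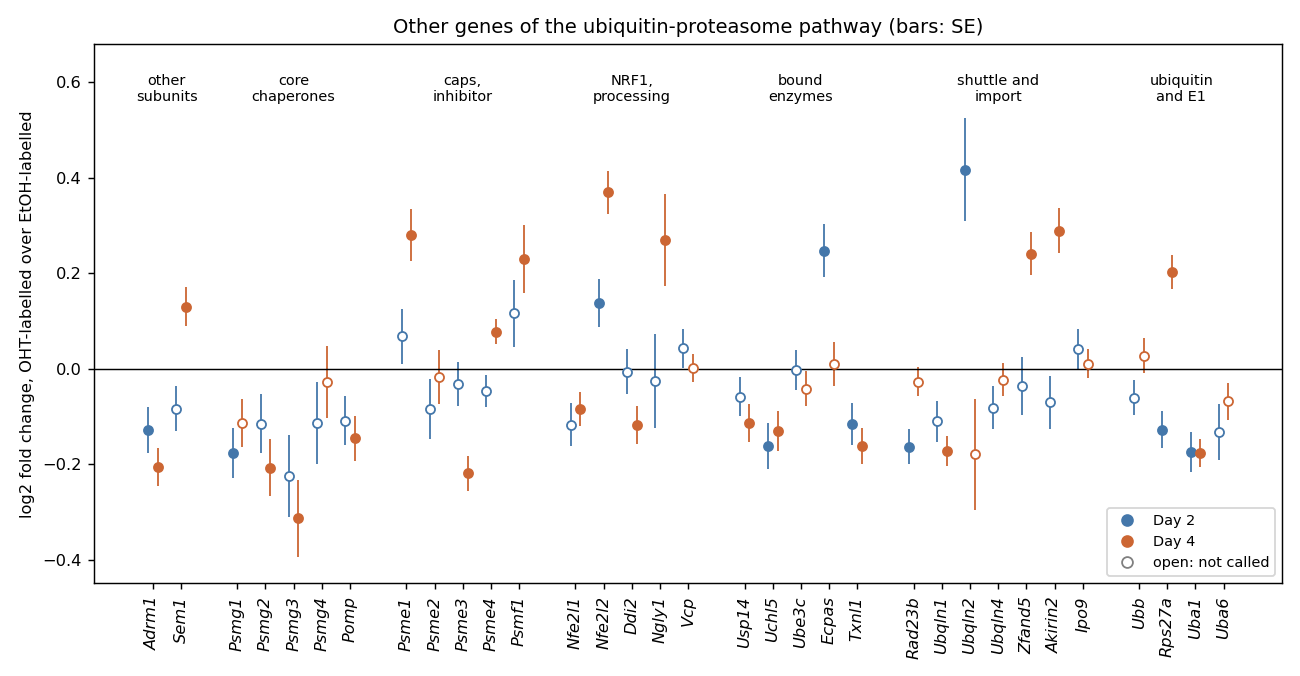
Log2 fold change of 33 other genes of the pathway, OHT-labelled over EtOH-labelled, at Day 2 (blue) and Day 4 (orange), with SEs and with open circles for genes not called. At Day 4 the core chaperones lie below 0, whereas *Nfe2l2* (0.37) and *Akirin2* (0.29) are among the highest.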

How the data were processed

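Total RNA libraries (TruSeq Stranded Total RNA) of 12 mESC samples were sequenced, and the authors aligned the reads to GRCm38.p6 with STAR 2.6.0c and quantified GENCODE vM18 genes with RSEM. Each deposited table gives expected counts (estimated counts, not normalised) and TPM (scaled by the authors to the same total in each library) per gene, with posterior SDs. Gene symbols came from 2 deposited tables of the authors' own comparisons, whose fold changes and p-values were not used.

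Expected counts were rounded and tested with DESeq2 1.42.0 in R 4.3.3 (Wald test, median-of-ratios normalisation, unshrunken fold changes). Each comparison was fitted over all genes with the libraries of its groups, and the difference between days as an interaction over all 12. A gene was called at an adjusted p (Benjamini-Hochberg) below 0.05 and a mean normalised count above 100, thresholds taken with the tool from the study. Normalised counts were those of DESeq2, and all 36 subunit genes passed the mean of 100. Counts of single genes were scaled within each day, so Day 2 and Day 4 values are not on the same scale. Those behind the particle means were scaled over all 12 libraries. Alternatives were edgeR 4.0.16 (quasi-likelihood), other scalings, effective lengths as offsets, removal of the length trend (loess, span 0.3, added count 0.5), a replicate block, a count filter of 10, other gene sets and each library left out. All subunit genes were named. Values in every library were given for those on the PRDM10 list, the catalytic subunits, and the highest and lowest Day 4 value in each particle. A chi-square of 3.41 to 11.17 per gene between replicates exceeded sampling noise, and all 12 libraries were kept. Members and lists were chosen with earlier results of these data known. Some genes of the pathway list are not reported here. Gene positions are from GENCODE vM21 on GRCm38, promoters from RefSeq (GRCm38.p6), and probes from the study's oligonucleotide list. Intervals of counts were not given, since precision was set by the spread between libraries.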

Additional observations from a re-analysis of the deposited data

Results flagged for a closer look

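The effect of OHT differed between the days for 8 of 36 subunit genes by the interaction of label and day (DESeq2, adjusted p below 0.05). Of the 36, 8.33% were called higher at Day 4 and 13.9% lower, against 18.9% and 13.6% of all 11612 genes tested. The subunit genes were therefore not called more often than genes in general. Differences are log2 fold change at Day 4 minus that at Day 2. For *Psma5* the difference was -0.21 (SE 0.05, DESeq2 adjusted p = 0.00034), from -0.09 at Day 2 to -0.31 at Day 4, and it was called in 18 of 18 alternatives. For *Psmd7* it was -0.23 (SE 0.08, DESeq2 adjusted p = 0.0204), from -0.09 to -0.32, and for *Psmd11* it was -0.17 (SE 0.06, DESeq2 adjusted p = 0.0243), from 0.13 to -0.04. *Psma6* (-0.14, DESeq2 adjusted p = 0.049) and *Psma7* (-0.12, DESeq2 adjusted p = 0.0459) also had a more negative effect at Day 4.

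*Psmb5* (0.15, DESeq2 adjusted p = 0.0225), *Psmb6* (0.12, DESeq2 adjusted p = 0.0476) and *Psmd8* (0.13, DESeq2 adjusted p = 0.0461) had a negative value at Day 2 and a positive one at Day 4, none of which was called on its own day. Of the 18 alternatives, *Psmd7* was called in 13, *Psmd11* in 11, *Psmb5* in 10, *Psmd8* in 8, *Psma7* and *Psmb6* in 7 and *Psma6* in 5. Each of these 7 was lost without Day2_EtOH replicate 2 or Day4_OHT replicate 2.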

How the results depend on the processing

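No called value of a subunit gene changed sign under any alternative, in any of the 5 comparisons. Of 33 other pathway genes the same held, except for *Psme4*, called lower between the days in OHT-labelled libraries, which was at 0.06 with the length trend removed. For the 7 subunit genes given library by library, in the label comparisons and the interaction, 296 values under an alternative kept their side of the threshold, 45 lost the call and 9 gained it. At Day 4 the core count of genes that fell was 9 (8 to 9 with each library left out) and the regulatory count 11 (9 to 11), or 6 with the replicate block and the length trend removed. Without single libraries, core genes called higher at Day 4 ran from 0 to 2, and the medians from -0.14 to -0.079 (core) and from -0.11 to -0.059 (regulatory). At Day 2, core genes that fell (4) became 2 with total counts and 7 with all 12 libraries in 1 fit, and 1 to 6 without single libraries. Regulatory genes that fell (2) became 1 with total counts, 4 with the length trend removed, 5 with all 12 libraries, and 1 to 6 without single libraries. *Psmd11* made the regulatory count of higher genes 1 in place of 0 with edgeR, TMM factors, total counts, adjustment over genes above the minimum alone and all 12 libraries (0 to 1 without single libraries). The Day 2 medians were -0.051 in both particles with total counts, and without single libraries ran from -0.12 to -0.076 (core) and from -0.094 to -0.064 (regulatory).

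In the interaction, core lower calls (3) became 5 with total counts and 1 with effective lengths (1 to 3 without single libraries), and core higher calls (2) became 0 with total counts and 1 with the length trend removed (0 to 4). Regulatory lower calls (2) became 5 with total counts and 1 with effective lengths (0 to 3), and higher calls (1) became 2 with edgeR, TMM factors or effective lengths, and 0 with total counts or the replicate block (0 to 2). Between the days in EtOH-labelled libraries, the core lower call (1) became 0 with total counts, effective lengths or the length trend removed (0 to 2), and core higher calls (2) became 1 with effective lengths or the replicate block (0 to 1). Regulatory higher calls there (7) ran from 3 to 6 without single libraries. With edgeR, total counts or the length trend removed, higher calls increased in both particles, from 9 to 12 together. In OHT-labelled libraries core lower calls (2) became 4 with total counts, and regulatory lower calls (2) ran from 1 to 2. Why these counts moved was not tested.

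Replicate numbers were not treated as pairing the libraries. Deviations of same-numbered libraries correlated between -0.23 and 0.12, over 0.1 in 1 of 6 pairs, and 1 of 12 libraries correlated best with its own number. With the replicate block 3 core and 2 regulatory genes fell at Day 2, and 8 and 9 at Day 4. With 3 libraries a group, changes near the SE of 0.03 to 0.10 could not be called.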
